A study of Mus musculus with 4 samples.

Results

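The genes described here make the head groups of the membrane phospholipids: Chka, Chkb, Etnk1, Pcyt1a, Pcyt1b, Pcyt2, Cept1, Ptdss1, Ptdss2 and Pisd. They were chosen by name as enzymes of the Kennedy pathway and of phosphatidylserine (PS) metabolism, and are 10 of the 18194 genes that could be named from the arrays. RNA of mouse cerebrums was read on Affymetrix Mouse 430 2.0 arrays in 4 groups, each 1 pool of 5 to 6 animals on 1 array. 2aECKO mice carry the floxed Mfsd2a allele on both chromosomes (Mfsd2afl/fl) with Tie2-cre, and were compared with Mfsd2afl/fl mice without cre (2afl/fl), both at postnatal day 9. 2aiECKO mice carry the same floxed allele with Cdh5ERT2-cre, whose recombinase acts after 4-hydroxytamoxifen (4-OHT), given from the day of birth, and were compared with 4-OHT-treated Mfsd2afl/fl mice, both at postnatal day 8. Tie2-cre acts before birth and is known to be active in blood lineages as well as in endothelium. In both models the deletion is aimed at endothelium, while the RNA came from all cells of the cerebrum. For the 2aiECKO pool the source name says 2aECKO, whereas title and genotype both give the induced model, which was followed here.

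Phosphatidylcholine (PC) and phosphatidylethanolamine (PE) are built by parallel branches of the Kennedy pathway. A kinase phosphorylates choline or ethanolamine, a cytidylyl transferase activates the product with CTP, usually as the rate-limiting step, and a phosphotransferase passes the head group to diacylglycerol. PS is made by exchanging serine for the choline of PC or the ethanolamine of PE, and mitochondria decarboxylate PS back to PE. Mfsd2a carries lysophosphatidylcholine with docosahexaenoic acid (DHA) across the blood-brain barrier, and PE and PS are the brain phospholipids richest in DHA. The comparisons therefore ask whether genes of head group synthesis differ where that supply is lost.

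The arrays were deposited as RMA signals, not on a log scale, and a fold is the signal of a knockout pool over that of its own control, given here on the log2 scale. Each gene was represented by its brightest probe set. A gene was called higher where its knockout signal reached 50 and was at least 25% above the control, and lower where its control signal reached 50 and the knockout was at least 20% below it. Both limits are a log2 fold of 0.32 in size. The median signal was 74.1 and 75.5 in the 2afl/fl and 2aECKO pools, and 48.7 and 49.2 in the 4-OHT control and 2aiECKO pools, so folds were taken within a pair only. With 1 array per group there was no replicate spread and no test, and precision is limited by this number of arrays. The spread over the 12426 genes of mean signal 50 or more is given as a scale, though it does not measure replicate spread. The central 95% of their log2 folds lay between -0.27 and 0.30 in 2aECKO and between -0.22 and 0.28 in 2aiECKO. Mfsd2a itself read 423 in 2afl/fl against 410.2 in 2aECKO, and 369 in the 4-OHT control against 299 in 2aiECKO, log2 folds of -0.05 and -0.30. Its probe set has no known position relative to the deleted exons in the sources used here, so it does not check the genotype.

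Markers of several cell types differed between the pools. All 8 neuronal, 8 astrocytic, 6 microglial and 6 endothelial markers listed had a mean signal of 50 or more, and no marker of these types was at 0. Of the 8 astrocyte markers, 1 was higher in 2aECKO and 3 in 2aiECKO, with summed signals of 21237 in 2afl/fl, 24243 in 2aECKO, 14922 in the 4-OHT control and 18025 in 2aiECKO. Of the 6 microglial markers, 0 were higher in 2aECKO and 6 in 2aiECKO, with summed signals of 3434, 3788, 3092 and 4572 in the same order. Of 4 nuclear-retained RNAs, which follow how the RNA was prepared as well as what cells made, 3 were higher in 2aECKO and 0 in 2aiECKO, with summed signals of 9917, 14079.7, 4375 and 5055. Of the 8 neuronal markers 1, Slc17a7, was lower in 2aECKO, at a log2 fold of -0.39, and 0 were lower in 2aiECKO, where all 8 were below 0; their summed signals were 47655, 45932, 36830.3 and 35938. Of 4 myelin markers of sufficient signal 1, Mobp, was lower in 2aECKO, at -0.34, and 1, Mbp, was higher in 2aiECKO, at 0.42, with summed signals of 9011, 9648, 5244 and 6681. Of 4 red cell genes listed, Hbb-bs and Hbb-b1 were not measured. Alas2 read 57.9, 119.6, 36.8 and 25.8, the latter pair under the minimum signal. Hba-a1 was under it in all pools, at 22.5, 21.0, 8.9 and 8.3, and did not share the Alas2 difference in 2aECKO. The part of these differences in the values below was not tested. In pooled tissue RNA, fewer cells of a type and less RNA per cell cannot be told apart.

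Genes of head group synthesis stood close to their control levels in both knockouts. In 2aECKO, 0 of the 10 genes were higher and 0 were lower, where 2.04% of all genes of mean signal 50 or more were higher and 1.44% lower. In 2aiECKO, 0 were higher and 0 were lower as well, where 1.77% of all genes were higher and 0.523% lower. At these background shares less than 1 gene in 10 would be counted, so the count of 0 is not a result about these genes. Their median log2 fold was 0.037 in 2aECKO, from -0.04 at Ptdss2 to 0.21 at Chka, against a median of -0.0066 over all genes. In 2aiECKO it was -0.014, from -0.08 at Ptdss1 to 0.07 at Etnk1, against -0.0042 over all genes. At the brightest probe set the log2 fold was above 0 for 8 of 10 genes in 2aECKO and for 3 of 10 in 2aiECKO. It was above 0 for 46.3% and 46.4% of all genes. Over all 30 probe sets that carry 1 of these symbols alone, 16 were above 0 and 14 below in 2aECKO, with a median of 0.0053. In 2aiECKO 8 were above 0 and 20 below, with a median of -0.0324. For scale, Srebf1, which encodes the lipogenic regulator Srebp-1, had log2 folds of 0.85 and 0.61 on the same arrays, and its desaturase target Scd1 had 0.86 and 0.39.

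**Figure D1:**
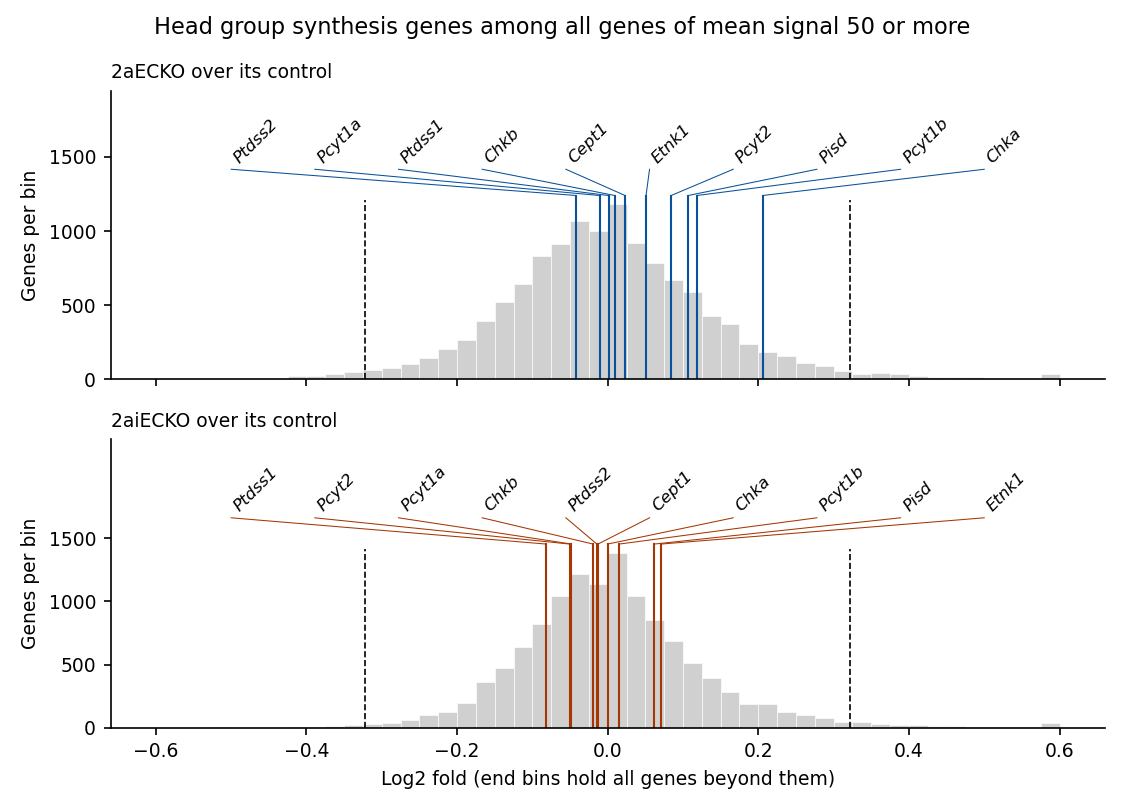
Grey bars count all 12426 genes of mean signal 50 or more by the log2 fold of a knockout pool over its control (horizontal axis), 2aECKO above and 2aiECKO below; coloured lines mark the 10 head group genes, dashed lines the limits for higher and lower, and the end bins hold all genes beyond them. All 10 lines lie inside the limits in both panels, from -0.04 to 0.21 in 2aECKO and from -0.08 to 0.07 in 2aiECKO.

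Among the kinases, which open both branches, Chka had the largest value of the 10 genes in 2aECKO and an identical reading in both pools of the induced pair. Chka, a choline kinase that also accepts ethanolamine, read 335 in 2afl/fl, 386 in 2aECKO, 407 in the 4-OHT control and 407 in 2aiECKO. The 2aECKO pool was above its control by 15.3%, a log2 fold of 0.21, which 6.42% of all genes matched or exceeded. The deposited values of the 4-OHT control and 2aiECKO were identical, a log2 fold of 0. Chkb, the second choline kinase, read 491 and 494 in 2afl/fl and 2aECKO, then 422 and 417 in the induced pair. Its log2 folds were 0.0094 and -0.02. Etnk1, which phosphorylates ethanolamine and opens the PE branch, had signals of 1865 and 1932 in the first pair and of 1502 and 1578 in the other. Both knockout pools were slightly above their controls, by log2 folds of 0.05 and 0.07. Over the mean of the 5 Etnk1 probe sets the log2 fold in 2aiECKO was -0.05, so its direction there depends on the probe set. The median log2 fold of the 3 kinases was 0.05 in 2aECKO and 0 in 2aiECKO.

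**Figure D2:**
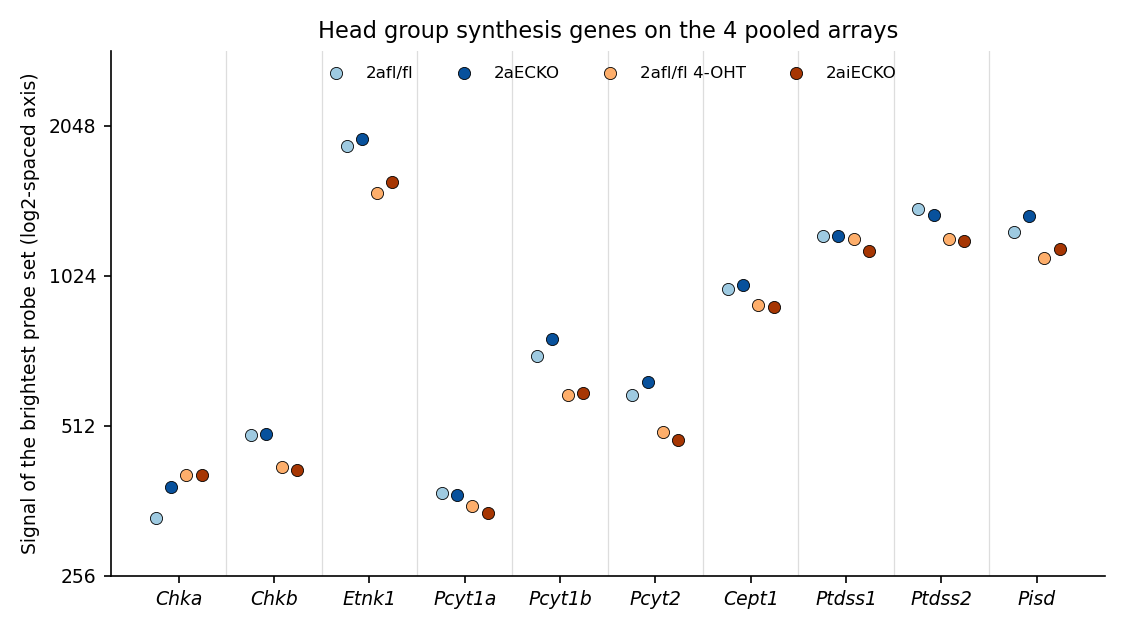
Signal of the brightest probe set of each gene (vertical axis, log2-spaced) on the 4 pooled arrays, 1 point per array, with each knockout pool beside its own control; signals of different genes are not comparable. The knockout points lie close to their controls, with the widest gap at Chka between 335 in 2afl/fl and 386 in 2aECKO, and the 4-OHT pair lies below the other pair for every gene but Chka.

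The cytidylyl transferases, which set the pace of each branch, were all within the limits, with Pcyt1b and Pcyt2 above their control in 2aECKO and Pcyt1a at its control level. Pcyt1a, the widely expressed CTP:phosphocholine cytidylyl transferase, read 375 in 2afl/fl, 372 in 2aECKO, 353 in the 4-OHT control and 342 in 2aiECKO. Its log2 folds were -0.01 and -0.05. Pcyt1b, the related enzyme found mostly in brain and gonads, had signals of 706, 766, 589 and 595 in the same order. The 2aECKO pool was above its control by 8.55%, a log2 fold of 0.12 that 16.3% of all genes matched or exceeded, and the 2aiECKO pool by a log2 fold of 0.02. Pcyt2, which activates phosphoethanolamine and is thought to limit PE synthesis, had signals of 590.3, 626, 497 and 479.7. Pcyt2 log2 folds were 0.08 and -0.05, with the knockout pool above the control in the first pair and below it in the other. The median of the 3 genes was 0.08 in 2aECKO and -0.05 in 2aiECKO. Cept1 completes both branches by passing the head group to diacylglycerol. Its signals were 964 and 979.8 in 2afl/fl and 2aECKO, then 894 and 886 in the induced pair, log2 folds of 0.02 and -0.01.

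Of the genes of PS metabolism, Pisd had the highest log2 fold in both models. Ptdss1, which makes PS from PC, read 1228.9 in 2afl/fl, 1229.9 in 2aECKO, 1216 in the 4-OHT control and 1149 in 2aiECKO. The 2aECKO pool was at its control level, with a log2 fold of 0.0012, and the 2aiECKO pool lay below its control by a log2 fold of -0.08, the lowest of the 10 genes there. Ptdss2, which makes PS from PE and is known to act on DHA-containing species, had signals of 1394, 1354, 1215 and 1203, log2 folds of -0.04 and -0.01. Pisd, the mitochondrial decarboxylase that turns PS into PE, had signals of 1254, 1351, 1109.7 and 1158. Both knockout pools were above their controls, by log2 folds of 0.11 and 0.06, which 18.3% and 26.3% of all genes matched or exceeded. The Pisd value rests on 1 probe set of a design that can also detect related sequences, and the mouse genome holds Pisd pseudogenes, so its signal is uncertain in part.

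A promoter table from RefSeq (GRCm38.p6), with windows from 250 bases before to 50 after each start site, held 8 of the 10 genes in 14 windows; Pcyt2 and Ptdss1 were not among them. Because Srebf1 was higher in both knockouts, the windows were searched on both strands for a sterol regulatory element-like sequence (TCACNCCAC), an E-box (CACGTG) and a CCAAT box (CCAAT). The end of the first motif can share its letters with an E-box, but no matches overlapped at these genes. The first was found in 2 overlapping windows of 1 of the 8 genes, Pcyt1a, where 1.44% of all 27025 genes and 1.24% of all 32851 windows held it. The E-box was found at 0 of the 8 genes, where 8.09% of all genes and 7.15% of all windows held it. The CCAAT box was found at 5 of the 8 genes, Cept1, Chka, Chkb, Pcyt1b and Pisd, in 6 of the 14 windows, where 41.1% of all genes and 37.4% of all windows held it. Below are the Pcyt1a window with the sterol element-like match, chr16:32430671-32430970 on the plus strand, and the window of Chka, the gene with the largest log2 fold, chr19:3851523-3851822 on the plus strand; capitals mark the motif matches.
Pcyt1a: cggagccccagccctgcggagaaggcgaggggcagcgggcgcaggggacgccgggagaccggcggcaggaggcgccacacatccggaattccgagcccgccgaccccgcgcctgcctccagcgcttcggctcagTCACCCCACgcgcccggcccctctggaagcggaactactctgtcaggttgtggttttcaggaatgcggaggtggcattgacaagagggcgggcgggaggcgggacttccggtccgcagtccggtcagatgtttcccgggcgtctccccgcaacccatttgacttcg
Chka: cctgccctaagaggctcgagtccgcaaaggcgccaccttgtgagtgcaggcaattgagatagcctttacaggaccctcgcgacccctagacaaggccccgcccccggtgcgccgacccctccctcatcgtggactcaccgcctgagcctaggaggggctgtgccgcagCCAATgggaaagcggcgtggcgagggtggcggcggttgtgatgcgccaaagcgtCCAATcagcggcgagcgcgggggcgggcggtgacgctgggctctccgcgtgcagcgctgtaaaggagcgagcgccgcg
The Pcyt1a match, TCACCCCAC, begins 116 bases before the start site of the window shown and 215 bases before a further start site of this gene, and the Chka matches begin 82 and 28 bases before that gene's start site. Pcyt1a, with the match, had log2 folds of -0.01 and -0.05, and Chka, with none of that motif in its window, had 0.21 and 0. A match is a description of these letters and not a binding site, and its part in the values of these genes was not tested.

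Further probe sets showed how far a gene's value depended on where it was read. The 10 genes have 30 probe sets that carry their symbol alone, 27 of them with a mean signal of 50 or more. Of the 30, 0 were called higher or lower in either comparison, where 4.25% of all such probe sets of mean signal 50 or more were past either limit in 2aECKO and 2.34% in 2aiECKO. Over 5611 genes with at least 2 probe sets of that signal, the log2 folds of the 2 brightest differed by a median of 0.07 in each comparison, and by 0.21 at the 90th percentile in both. All 3 Chka probe sets were above 0 in 2aECKO, with log2 folds of 0.21, 0.27 and 0.15. In 2aiECKO the same probe sets had 0, 0.12 and -0.26. The latter values came from signals under 50 in both pools, 38.1 to 41.4 and 37.3 to 31.1, so they give no firm direction there. Both Pcyt1b probe sets were above 0 in 2aECKO, at 0.12 and 0.06, and lay on either side of 0 in 2aiECKO, at 0.02 and -0.04. Of the 4 Pcyt1a probe sets, 3 were below 0 in 2aECKO and 3 in 2aiECKO, with ranges from -0.18 to 0.095 and from -0.19 to 0.

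Ptdss2 and Etnk1 have the most probe sets. The 9 Ptdss2 probe sets ranged from -0.25 to 0.24 in 2aECKO and from -0.23 to 0.12 in 2aiECKO, with 7 of 9 below 0 in each. In 2aECKO those above 0 had a mean signal under 50. All 7 of mean signal 50 or more were below 0 there, from -0.25 to -0.02. In 2aiECKO the lowest value came from a probe set of mean signal under 50, while those above 0, at 0.12 and 0.07, were brighter. The brightest Ptdss2 probe set with no _a, _s or _x in its name had signals of 91.5, 77.1, 71.7 and 62.1. Its log2 folds were -0.25 and -0.21, larger in size than those of the brightest Ptdss2 probe set. The 5 Etnk1 probe sets ranged from -0.14 to 0.24 in 2aECKO and from -0.43 to 0.16 in 2aiECKO. The lowest had signals of 46.5 in the 4-OHT control and 34.5 in 2aiECKO, and was past the limit but was not called because its control signal was under 50. Ptdss1 had -0.07 in 2aiECKO at its second bright probe set, beside -0.08 at the brightest, and 0.22 at a dim one with signals of 30.7 and 35.8. Chkb, Pcyt2, Cept1 and Pisd have 1 such probe set each, so their values have no second reading.

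**Figure D3:**
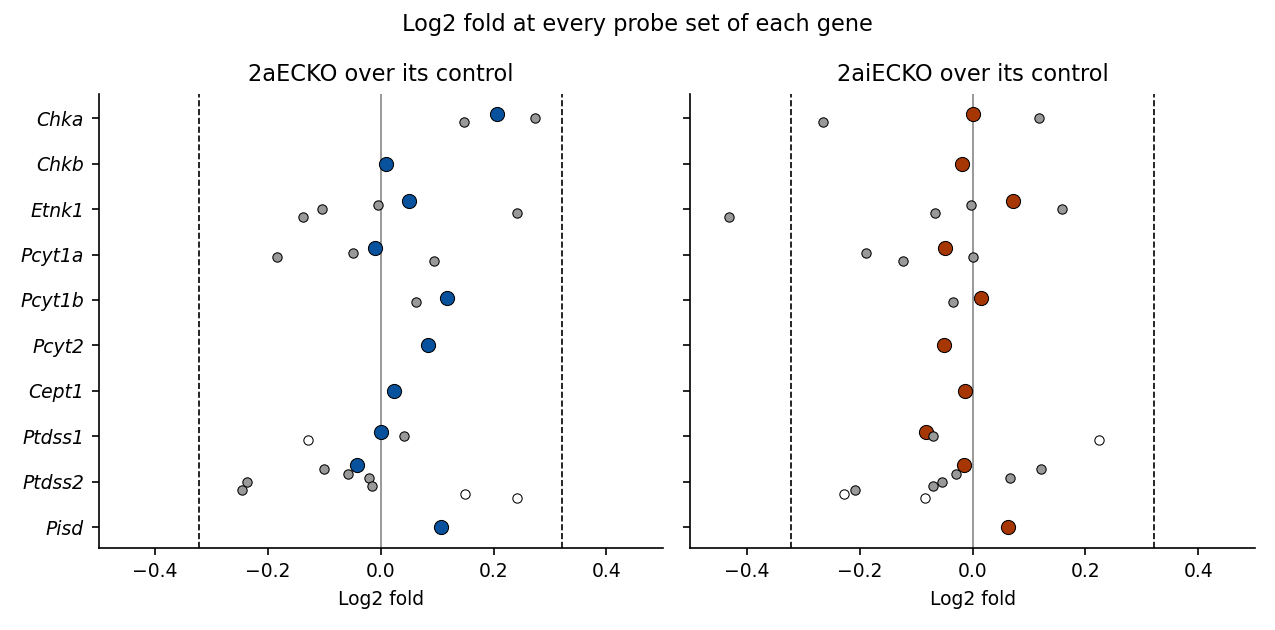
Log2 fold of a knockout pool over its control (horizontal axis) at each of the 30 probe sets of the 10 genes, 2aECKO left and 2aiECKO right; large coloured points are the brightest probe set of a gene, small grey points the others, open points those of mean signal under 50, and dashed lines the limits for higher and lower. All 3 Chka points lie right of 0 in 2aECKO but not in 2aiECKO, and 1 Etnk1 point in 2aiECKO, at -0.43, lies beyond the limits. The small Chka points in 2aiECKO and that Etnk1 point come from signals under 50 in that pair, though their mean over the 4 arrays is above 50.

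Side by side, 5 of the 10 genes had the same direction in both models at their brightest probe set. The log2 fold was above 0 in both for Etnk1, Pcyt1b and Pisd, and below 0 in both for Pcyt1a and Ptdss2. It was above 0 in 2aECKO and below 0 in 2aiECKO for Chkb, Pcyt2, Cept1 and Ptdss1. The median over the 10 genes of the value in 2aECKO minus that in 2aiECKO was 0.04, and the largest difference was 0.21, at Chka. These differences have no replicate spread and were not tested. The models differ in cre driver, time of deletion, 4-OHT, age and array scale, which cannot be told apart.

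Some of these genes also differed between the control pools, which carry no deletion, and most at Chka among the brightest probe sets. After quantile normalization of all 4 arrays to 1 scale, the 4-OHT control minus 2afl/fl had a median of 0.06 over all genes on the log2 scale, with a robust SD of 0.24, and a median of 0.10 over the 10 genes. The brightest Chka probe set was higher in the 4-OHT control, by 0.61 after normalization and 0.28 as deposited. The other Chka probe sets were lower there, by -1.16 and -1.40 after normalization, with deposited signals of 126.0 and 146.1 in 2afl/fl and 38.1 and 37.3 in the 4-OHT control. The Chka probe sets thus went opposite ways between the controls. Probe sets of Pcyt1a did so too, at 0.24 and 0.42 against -0.38 and -0.60, and those of Etnk1 ran from -0.02 to -1.16. The remaining 9 genes had brightest probe sets from -0.02 at Etnk1 to 0.27 at Ptdss1. Age, 4-OHT and the processing of each array pair cannot be told apart in these differences.

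A wider set of head group genes was read in the same way. Of 43 other genes listed for uptake, last steps, PE methylation, CTP supply, the CDP-diacylglycerol branch, head group release and PS transport, 39 were measured and 35 had a mean signal of 50 or more. Of these 35, 0 were higher and 0 lower in either comparison at the brightest probe set. At the shares of all genes given above about 1 of 35 would be called, so this count is not a result about them. These genes have 72 probe sets of mean signal 50 or more, of which 1 was past a limit in 2aECKO and 2 in 2aiECKO, beside the shares of 4.25% and 2.34% of all such probe sets. They belong to the flippase gene Atp8a2, at 0.39 in 2aECKO, and to the choline transporter-like gene Slc44a1, at 0.43, and Chpt1, at 0.36, in 2aiECKO. Atp8a2 and Slc44a1 were named after their values were seen, and their brightest probe sets had -0.0084 and 0.11 in the same comparisons. The median log2 fold of the 35 genes was -0.03 in 2aECKO, with 12 of 35 above 0, and 0 in 2aiECKO, with 17 of 35 above 0. Over all genes 46.3% and 46.4% were above 0, with medians of -0.0066 and -0.0042. Genes of PS transport and exposure, which include the flippases and scramblases, were above 0 in 1 of 11 cases in 2aECKO and 5 of 11 in 2aiECKO, with medians of -0.03 and 0. Genes of the CDP-diacylglycerol branch, which leads to phosphatidylinositol and cardiolipin, were above 0 in 1 of 7 and 2 of 7 cases, with medians of -0.05 in both. The 4 choline and ethanolamine uptake genes of sufficient signal had medians of 0.09 and -0.01, and the 8 genes of head group release had 0.03 and 0.04. Pemt, which methylates PE to PC mainly in liver, had log2 folds of -0.08 and -0.15. The 2 CTP synthase genes had medians of 0.07 and -0.02.

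A log2 fold of 0.2 or more in size was reached by 1 of the 35 genes in 2aECKO and 3 in 2aiECKO, where 13% and 9.62% of all genes reached it, so these counts are near or below the background. Chpt1, which ends the PC branch in the Golgi, read 338 in 2afl/fl, 332 in 2aECKO, 232 in the 4-OHT control and 273 in 2aiECKO. Chpt1 log2 folds were thus -0.03 in the first pair and 0.24 in the induced pair. The 3 other Chpt1 probe sets of sufficient signal had 0.20 to 0.36 in 2aiECKO and -0.04 to 0.0062 in 2aECKO, so all of them placed the difference in the induced model. Sgpl1, the sphingosine-1-phosphate lyase that releases phosphoethanolamine, had signals of 225, 230.3, 198 and 237, log2 folds of 0.03 and 0.26, with 0.08 and 0.30 at its other bright probe set. Pnpla7, a lysophospholipase, had signals of 59.2, 56.4, 52.5 and 61.2, log2 folds of -0.07 and 0.22 at its only probe set, close to the minimum signal. Gpcpd1, which cleaves glycerophosphocholine, had signals of 1351, 1151, 844 and 802, log2 folds of -0.23 and -0.07, but 0.08 and 0.03 at its other bright probe set. In 2aiECKO, where Chpt1, Sgpl1 and Pnpla7 had their values above 0.2, the 6 microglial markers had a median log2 fold of 0.56. The 8 astrocyte markers had 0.30 and 4 myelin markers of sufficient signal 0.26. Markers of oligodendrocyte precursors had -0.04, neurons -0.03 and endothelium -0.13. In 2aECKO the medians were 0.15, 0.23, 0.02, -0.02, -0.06 and 0.01 in the same order. The part of those cells in the values of these 3 genes was not tested.

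**Figure D4:**
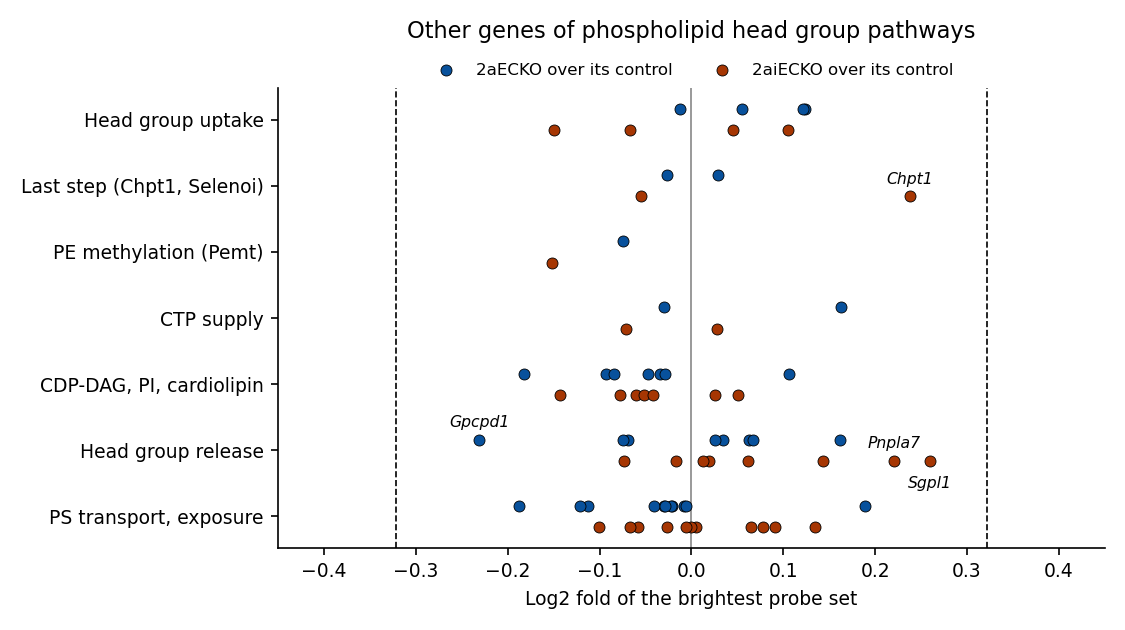
Log2 fold of the brightest probe set (horizontal axis) for the 35 other head group genes of mean signal 50 or more, 1 point per gene and comparison, blue for 2aECKO and red-brown for 2aiECKO over their controls, grouped by role, with dashed lines at the limits for higher and lower. No point lies beyond the limits, the farthest being Sgpl1 at 0.26 in 2aiECKO and Gpcpd1 at -0.23 in 2aECKO.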

How the data were processed

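RNA pooled from 5 to 6 cerebrums per group was hybridised by the authors to Mouse 430 2.0 arrays, 1 array for each of 4 groups. The deposited intensity values are background-adjusted, quantile-normalized RMA signals on a linear scale. The study's methods name the affy package in R, and the submitters' processing notes name Partek 6.6 and RMA. These deposited intensity values were put on the log2 scale. GEO's platform annotation gives 1 symbol for 34958 of the 45101 probe sets, several for 932 and none for 9211; symbols were updated through RefSeq (GRCm38.p6). A gene's value is its single-symbol probe set of highest mean log2 over the 4 arrays. The members, the wider pathway list, the markers and the motifs were chosen with earlier results of these data known. Named are all 10 members and Mfsd2a. Listed pathway genes were named at a mean signal of 50 or more and a log2 fold of at least 0.2 in size. Pemt, Slc44a3, Atp8a2 and Slc44a1 were named outside that rule. Srebf1 and Scd1 were added for scale. No test or p-value was possible with 1 array per group. Counting was tested on simulated data. Other settings tried were a mean over every probe set of a gene and leaving out probe sets with _a, _s or _x in their names. Removing a loess trend (fraction 0.3) and median centring were further settings. So were a signal minimum of 100 in place of 50, no minimum and a limit of 1.5-fold. Each knockout was also read against the control of the other model or against both controls averaged. Quantile normalization over 4 arrays was tried as well. Python 3.11.15, numpy 2.4.6, pandas 2.3.3, scipy 1.17.1, statsmodels 0.14.6 and matplotlib 3.10.9 were used.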

Additional observations from a re-analysis of the deposited data

Results flagged for a closer look

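For 4 of the genes the knockout pool lay above its control in 2aECKO and below it in 2aiECKO, at the brightest probe set. The log2 fold in 2aECKO minus that in 2aiECKO was 0.0288 for Chkb, 0.1349 for Pcyt2, 0.0359 for Cept1 and 0.0829 for Ptdss1. With 1 pool per group, none of these differences was tested. All 4 are smaller than 0.21, the 90th percentile of the difference between 2 probe sets of 1 gene within a comparison. That value comes from probe sets on the same arrays, so it holds no spread between pools and cannot judge differences between the models. For Ptdss1 the other bright probe set had the same directions, at 0.04 and -0.07. The mean over its 3 probe sets, which include a dim one, had the reverse, at -0.03 and 0.02.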

How the results depend on the processing

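No paired analysis was possible because each group has 1 array and the labels carry no replicate numbers, and for the same reason no array could be left out. With each knockout read against its own control, the counts of head group genes past the limits stayed at 0. The 1.5-fold limit is stricter and every brightest signal was above 100, so that limit and the changed minimums could not alter this count. The head group medians lay between 0.0162 and 0.0495 in 2aECKO and between -0.0342 and -0.0031 in 2aiECKO. The robust SD of all genes' log2 folds was 0.12 in 2aECKO and 0.10 in 2aiECKO. It is a spread between genes and does not measure replicate spread. Over the settings with the own control, single genes lay between -0.25 and 0.27 in 2aECKO and between -0.21 and 0.12 in 2aiECKO. Leaving out probe sets with _a, _s or _x in their names removed Chkb, Pcyt2 and Pisd. With no minimum signal, 1 of 39 wider pathway genes, Slc44a3, was past the limit in 2aiECKO, beside 4.1% of all genes. The other model's control changed more: in 2aECKO 3 head group genes (Etnk1, Pcyt1b and Pcyt2) and 11 wider genes were past the limits, with a head group median of 0.19, and in 2aiECKO 14 wider genes, with a median of -0.17. By construction this brings in the scale difference between the pairs, and 48% and 48.9% of all genes were then past them. With the mean of both controls, 4 of 35 wider genes were past them in each model, beside 16.7% of all genes in 2aECKO and 17.2% in 2aiECKO. With quantile normalization and the other control, 1 head group gene, Chka, was past them in each model, at -0.40 in 2aECKO and 0.62 in 2aiECKO, beside 11 and 9 wider genes, with head group medians of -0.11 and 0.13, and 24.2% and 24.4% of all genes were past them. The median difference between the models, whose alternatives were chosen after seeing the data, was 0.38 with the other control, 0.20 with the mean of both and -0.19 with quantile normalization and the other control. Signals under 50 limit Slc44a3, the dim Ptdss1 and Ptdss2 probe sets and, in the induced pair, the dimmer Chka probe sets and the lowest Etnk1 probe set.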

Other observations

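A probe set shared by Chkb with Cpt1b and Gm44502 had signals of 32.0 in 2afl/fl, 35.3 in 2aECKO, 36.1 in the 4-OHT control and 34.1 in 2aiECKO, log2 folds of 0.14 and -0.08. A probe set shared by Pisd and the pseudogenes Pisd-ps1 and Pisd-ps3 had signals of 2258, 2259.9, 1071 and 1155, log2 folds of 0.0014 and 0.11; in 2aECKO it did not share the value of 0.11 that the single-symbol Pisd probe set had.

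Among the wider pathway genes, 4 had a mean signal under 50. Slc44a3, a choline transporter-like gene, had signals of 8.5, 10.5, 13.0 and 10.2 and log2 folds of 0.31 and -0.36. A dimmer Pcyt1a probe set had the identical deposited value of 75.4 in the 4-OHT control and 2aiECKO, as the brightest Chka probe set did at 407. Such ties were not particular to the head group genes described here, as the wider gene Xkr8 read 45.8 in both of these pools.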
